A study of Mus musculus with 4 samples.

Results

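Mature migratory dendritic cells were chosen by their UMI counts among the cells of mouse lung tumors, on the transcripts for fascin and the chemokine receptor Ccr7. A cell was taken as a member when it held at least 2 Fscn1 UMIs, at least 1 Ccr7 UMI and at least 5 UMIs summed over the MHC class II genes H2-Aa, H2-Ab1 and H2-Eb1. It also had to hold at most 1 UMI of Xcr1 and Clec9a and no UMI of Cd79a, Cd3d, Cd3e or Cd3g. A UMI is a molecular tag that counts 1 captured RNA molecule. The rule found 64 members among 19892 kept cells, out of 20351 cells in all, a share of 0.322% (exact 95% interval 0.248 to 0.411%). They were 15.7% (12.3 to 19.6%) of the 407 cells in all the dendritic gates.

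The tumors came from 4 female mice in which Cre, delivered into the airways by lentivirus, switched on tdTomato and flipped a gene trap within the first intron of Lkb1. All 4 were Lkb1XTR/XTR. The Restored group (n = 2) carried Rosa26LSL-tdTomato on 1 allele and FLPo-ERT2 on the other, so that tamoxifen could excise the trap. The Non-Restored group (n = 2) carried Rosa26LSL-tdTomato and lacked the recombinase. Both groups carried tumors for 16 weeks and, per the labels, received tamoxifen in 4 mg doses for 2 weeks before viable cells were sorted and their RNA counted from its 3′ end. The XTR allele and, in Restored mice, the recombinase were carried in every cell, whereas Cre came with the virus given into the airways, and which cells it reached was not measured here. Per the study's methods the mice were young adults when tumors were started. The deposited matrix pools the 4 mice with no map from cells to mice and no barcodes, so Restored and Non-Restored members could not be compared and shared barcodes could not be counted. All values are therefore those of 1 pooled sample, no test was possible, and every interval covers counting error only.

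Dendritic cells take up antigen in tissues and, on maturation, travel through lymph to the draining node. Maturation brings Ccr7, which follows the lymphatic chemokines, and fascin, which bundles actin in their long protrusions. It also raises costimulatory molecules and lowers the uptake of new antigen. The chemokines Ccl22 and Ccl17 attract T cells that carry Ccr4. Type 1 and type 2 conventional dendritic cells, told apart by Xcr1 and Clec9a or by Cd209a and similar lectins, can both reach this state. NF-kappaB factors are known drivers of maturation genes.

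Promoter sequence was examined for the 15 genes that stood highest in the members over other conventional dendritic cells. The sequences are the 250 bases before the annotated RefSeq transcription start (GRCm38.p6), 5′ to 3′ on the strand of the gene, with each match to the 10-base NF-kappaB consensus on either strand in capitals. Both promoters with a match are shown, H2-M2 (chr17:37483555-37483804, minus strand) and a second start of Tnfrsf9 (chr4:150927749-150927998, plus strand), with Ccl22 (chr8:94745434-94745683, plus strand), which marks the members and holds none.
H2-M2: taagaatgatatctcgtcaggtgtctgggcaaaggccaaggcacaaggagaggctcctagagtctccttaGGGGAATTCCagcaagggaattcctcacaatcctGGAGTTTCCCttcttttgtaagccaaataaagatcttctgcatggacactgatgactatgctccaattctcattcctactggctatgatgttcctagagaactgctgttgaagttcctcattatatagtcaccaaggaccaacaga
Tnfrsf9: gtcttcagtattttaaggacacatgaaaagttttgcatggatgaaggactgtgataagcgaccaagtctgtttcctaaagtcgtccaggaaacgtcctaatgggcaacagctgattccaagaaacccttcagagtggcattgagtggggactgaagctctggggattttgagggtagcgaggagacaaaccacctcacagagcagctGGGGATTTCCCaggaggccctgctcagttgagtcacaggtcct
Ccl22: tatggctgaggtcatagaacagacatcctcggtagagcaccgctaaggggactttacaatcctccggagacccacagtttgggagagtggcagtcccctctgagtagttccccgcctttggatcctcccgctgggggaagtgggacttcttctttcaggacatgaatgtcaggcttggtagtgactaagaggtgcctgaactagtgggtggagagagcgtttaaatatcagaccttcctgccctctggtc
The H2-M2 window holds GGGGAATTCC on the strand of the gene, 180 to 171 bases before the start, and a match on the other strand, which reads GGAGTTTCCC on the strand printed, 146 to 137 bases before it. The Tnfrsf9 window holds GGGGATTTCC at 43 to 34 bases and, overlapping it, GGGATTTCCC at 42 to 33 bases, read on both strands. Both starts of Tnfrsf9 lie within its annotated span (chr4:150914562-150946102), and the start not shown holds no match. The Ccl22 window runs into the annotated span of its gene, which begins at chr8:94745590. Of the 15 genes 11 had a promoter entry and 2 held a match. Of 27025 genes with an entry 4.46% held a match in any entry, and of all 32851 promoters of the same length 1281 (3.90%) did. Ccl5, Fabp5, Anxa3 and Socs2 had no entry. A match describes letters in the window and was not tested as a binding site.

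The members were deep for this dataset, with a median of 4466 UMIs per cell (1658 to 9490) against 1995 over kept cells. The comparison classes were gated in the same way. Type 1-like cells (Xcr1 and Clec9a at 2 UMIs or more) numbered 82 with a median of 6761 UMIs. Type 2-like cells (Cd209a at 2 or more) numbered 121 with a median of 3769. Together they form the 203 other conventional dendritic cells. Plasmacytoid-like cells numbered 140, C1q macrophages 2312 and cells of the T gate 3509. Levels are given as CPM, the UMIs of a gene per 1000000 UMIs summed over the cells of a class. Doublet scoring marked 0.892% of 20299 cells, among them 1 member.

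The values that chose the members are a description. Fscn1 ran from 2 to 24 UMIs per member (median 6), Ccr7 from 1 to 28 (median 10) and the class II sum from 5 to 271 (median 35). At the Fscn1 limit, the 11 members with exactly 2 UMIs held Ccl22 at 3096 CPM and the 53 with 3 or more at 2627 CPM. Ccl22 was found in 8 of the 11, and 1 cell held 80 of their 172 UMIs. Cacnb3 (180 against 431 CPM) and Apol7c (180 against 470 CPM) were lower in the 11 than in the 53. So were Il4i1 (432 against 566 CPM) and Ccl5 (2286 against 3787 CPM). The 11 cells with 1 Fscn1 UMI that met all else held Ccl22 at 2134 CPM, and the 171 with none at 374 CPM. The 15 cells that lacked only Ccr7 held it at 29.4 CPM. Another 32 cells failed only the class II limit, and 31 of them held Ccl22. No cell was lost through Xcr1 and Clec9a or the mitochondrial limit, and 8 through Cd79a or Cd3.

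The label was checked against markers. Ccl22, the labelled marker that the rule did not use, was present in 54 of the 64. All 7 genes of the list shared by dendritic cells were detected (Cst3, Itgax, Zbtb46, Dpp4, Flt3, Kmo and H2-DMb2), Cst3 in all members and Zbtb46 in 9. Of the 6 that passed the level filter none was 2-fold higher than in other conventional dendritic cells, and Flt3 and Kmo were lower. Markers of lymphocytes were at or near 0: the 9 T cell genes summed to 4 UMIs, the 7 NK cell genes to 1 and the 8 B cell genes to 11. Monocyte markers were low as well, and all 5 that passed the level filter were 2-fold lower than in other conventional dendritic cells. Other lineage genes were not all near 0. C1q transcripts stood at 2 or more UMIs in 10 members, and C1qa reached 121 CPM against 8.87 in the other conventional dendritic cells, whose gates capped C1q at 1 UMI. The 8 alveolar macrophage genes summed to 1058 UMIs, of which 911 were Fabp5, while Chil3 was found as 74 UMIs in 8 members and Siglecf and Krt79 were at 0. The 9 epithelial genes summed to 92 UMIs in 41 members, 292 CPM against 580 in other conventional dendritic cells, and 58 of those UMIs were Epcam. The 6 endothelial genes summed to 26 UMIs in 3 members. TdTomato, the tumor reporter, was found as 29 UMIs in 11 members, 92.0 CPM (61.6 to 132) against 105 in other conventional dendritic cells. With members limited to at most 1 C1q UMI, 362 genes were 2-fold higher and 461 lower than in other conventional dendritic cells, and without cells with 2 or more UMIs of other lineages 392 and 506, against 349 and 389 with all cells.

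Clustering without any gene of the gates gathered most members. At resolution 1 it gave 31 clusters, and 57 of 64 members (89.1%) fell in a single cluster of 147 cells. That cluster held no type 1-like or type 2-like cell and 7 C1q macrophages. Its other 90 cells had a median of 4368 UMIs against 4373 in the members beside them. Of those 90, 84 held Ccl22, 79 held Ccr7 and 57 held Fscn1, and all 32 cells that failed only the class II limit were among them. The leading genes of the cluster were Ccl22, Fscn1, Il4i1, Apol7c and Il12b. Of the other 7 members, 3 lay in a cluster of mostly C1q macrophages, 3 in one that held 53 type 1-like and 27 type 2-like cells, and 1 in a further cluster. The count in the leading cluster was 57 at resolutions 0.5 and 2 as well, and 61 with the gate genes kept.

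The 15 genes farthest above other conventional dendritic cells included the chemokines Ccl5 and Ccl22. Ccl5, a chemokine for T cells and monocytes, stood at 3522 CPM (3318 to 3736) in the members against 1.77 CPM, or 2 UMIs, in the other conventional dendritic cells, a log2 ratio of 10.95 (9.10 to 14.00). Ccl22 stood at 2710 CPM (2531 to 2898) against 16.0, a log2 ratio of 7.41 (6.74 to 8.17). Fabp5, a fatty acid carrier, stood at 2891 CPM against 79.0, a log2 ratio of 5.19. Each was found in more than 50 of the 64 members. H2-M2, a nonclassical class I molecule, was 762 against 13.3 CPM, but C1q macrophages held it at 561 CPM. The plot of levels in 6 classes sets these genes beside each other.

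**Figure D1:**
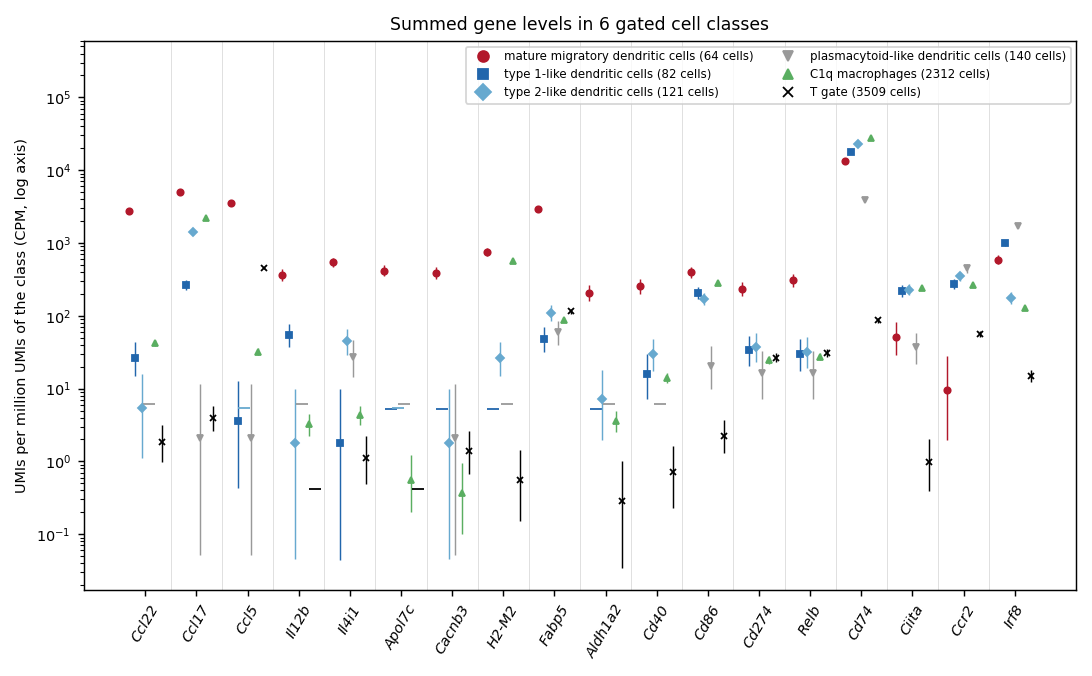
Summed level of 18 genes (x axis) in 6 gated cell classes, as CPM on a log axis, with exact 95% Poisson intervals, where a dash marks the level of 3 UMIs in a class with none. Ccl22, Ccl5, Il12b, Apol7c and Cacnb3 stand well above all other classes in the mature migratory cells, while Ccl17 and H2-M2 are also high in C1q macrophages.

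Several further genes were close to absent from the other conventional dendritic cells. Apol7c, an apolipoprotein L family member, was 419 CPM in the members against 0 UMIs, at least 157-fold higher when the comparison class is set to 3 UMIs. Nudt17 was 203 CPM and at least 76.3-fold higher, and Tnfrsf9, the costimulatory receptor 4-1BB, was 140 CPM and at least 52.4-fold higher. Cacnb3, a calcium channel subunit, was 387 CPM against 1 UMI, a log2 ratio of 8.77 (6.26 to 14.08). The remaining genes of the 15 were Anxa3, Socs2, Mreg, Il4i1, Cd63, Serpinb6b and Aldh1a2, with log2 ratios from 4.32 to 6.05. Il4i1 (an amino acid oxidase) was 543 against 23.1 CPM, and Cd63 (a tetraspanin of late endosomes) was 866 against 43.5 CPM. Aldh1a2, which makes retinoic acid, was 206 against 3.55 CPM, found in 16 members.

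The 15 lowest genes included markers of both conventional subsets. The comparison class was chosen on Xcr1 and Clec9a or on Cd209a, and members were capped on Xcr1 and Clec9a. Markers of the same subsets can therefore be lower in the members through the gates. Itgae and Naaa, expressed by type 1 cells, were 0 against 155 CPM and 31.7 against 863 CPM. Clec10a and Cd209d, lectins of type 2 cells, had no UMI in the members and were at least 14.3-fold and 15.4-fold lower. Ccr2, the receptor that brings monocyte-derived cells into tissue, was 9.52 CPM against 312, a log2 ratio of -5.03 (-7.32 to -3.47). The largest ratios were those of S100a9 (1 UMI against 1652 CPM, a log2 ratio of -9.02, -14.33 to -6.54) and S100a8 (6 UMIs against 1551 CPM), alarmins that neutrophils make in bulk. In the comparison class 24 of the 82 type 1-like cells carried S100a8, and their 3 highest cells held 31.4% of its UMIs in type 1-like cells. Cells with 2 or more UMIs of other lineages were then left out, by a filter that counts S100a8 itself. The log2 ratio of CPM + 10 went from -5.75 to 0.68 for S100a8, the opposite sign. It went from -6.98 to -1.35 for S100a9 and from -3.36 to -0.16 for Retnlg, another neutrophil gene. Cells with 2 or more S100a8 UMIs were thus removed by rule. The change in S100a8 is therefore no independent check, nor is that of genes carried by the same cells. Retnlg, Plac8, Sept3, Ly6e, Gpr171, Ifitm6, Ppt1 and Rab7b were the remaining 8, all at or under 60.3 CPM in the members.

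**Figure D2:**
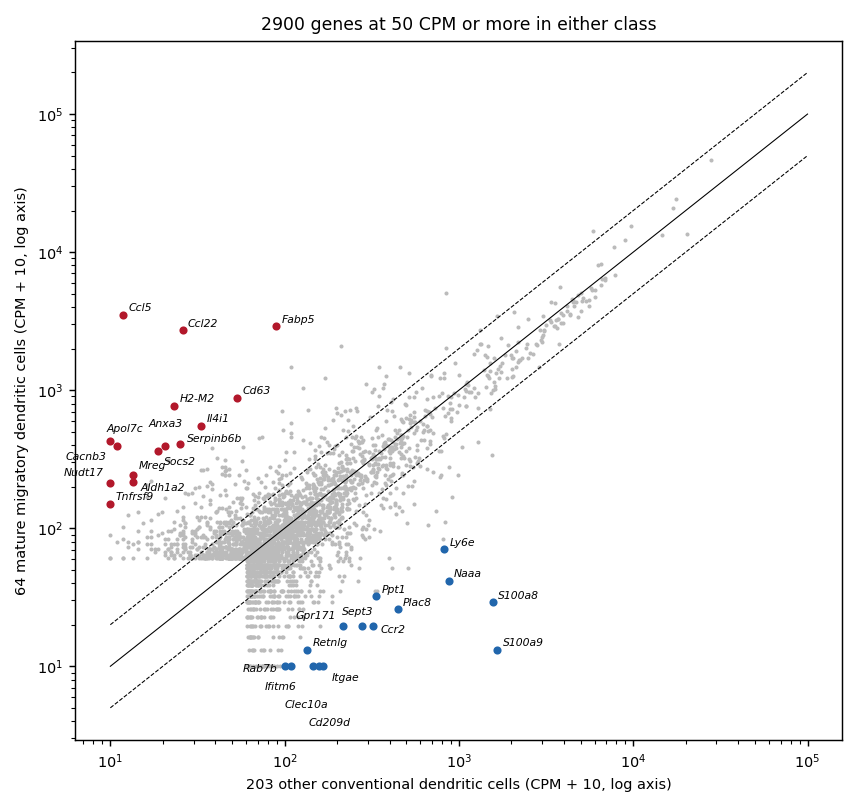
Each of 2900 genes at 50 CPM or more in either class, with its level in 203 other conventional dendritic cells (x) and in 64 mature migratory cells (y), both as CPM + 10 on log axes; the solid line marks equal levels and dashed lines 2-fold. The 15 highest genes (red) and 15 lowest (blue) are named, and Ccl5 and Ccl22 lie farthest above the line.

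In all, 2900 genes outside the gates reached 50 CPM in either class. Called means a 2-fold or larger ratio of CPM + 10, and by that rule 349 genes (12.0%) were higher and 389 (13.4%) lower in the members, with a median log2 ratio of -0.12 over all genes. Against type 1-like cells alone 15.1% were higher and 13.9% lower, and against type 2-like cells alone 12.3% and 15.6%.

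Measured against every other kept cell, 358 of 3152 genes (11.4%) were higher and 584 (18.5%) lower. The 10 highest were Ccl22, Apol7c, Il4i1, Il12b, Cacnb3, Nudt17, Aldh1a2, Tbc1d4, Mreg and Tmem123, and 7 of them are also among the 15 above. Il12b, the shared subunit of interleukins 12 and 23, was 368 CPM against 2.68 in all other cells. Tbc1d4 and Tmem123 were broad among the members, in 62 and 60 cells, at 1209 and 1460 CPM against 65.5 and 101 elsewhere. The 64 members, 0.322% of cells, held 60.8% of the Apol7c UMIs of all kept cells, 46.7% of Nudt17, 42.8% of Il12b and 40.6% of Ccl22. By contrast they held 5.21% of Ccl5 and 4.69% of Ccl17, which other cells also made.

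The chemokine list as a whole leaned upward. This and all other gene lists were drawn up with earlier results of these data known. Their counts stand beside 12.0% higher and 13.4% lower over all 2900 genes. Of its 12 genes at 50 CPM or more, 7 were higher and 2 lower, with a median log2 ratio of 1.55. Ccl17 was 5017 CPM in the members, 269 in type 1-like cells, 1397 in type 2-like cells and 2179 in C1q macrophages, so its excess was 2.59 in log2 over other conventional dendritic cells. Cxcl16, Cxcl2, Cxcl1 and Cxcl10 were the other higher genes, with Cxcl16 in 57 cells at 692 against 212 CPM. Cxcl10 was confined to 6 members and Cxcl1 to 7. Ccl4 (225 against 770 CPM) and Cxcl9 (47.6 against 132 CPM) were lower, both ligands that draw effector T cells. Ccl22 was found in 54 members and Ccl17 and Ccl5 in 52 each, with Ccl22 and Ccl17 together in 50 and Ccl22 and Ccl5 together in 44, and genes this common share most cells in any case.

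Because depth sets how many cells show a gene, each cell was also thinned to 1000 UMIs. A Ccl22 UMI was then found in 68.8% of members (55.9 to 79.8%), against 84.4% with all UMIs. In T gate cells, which should lack it, the thinned share was 0.182% (median depth 1716 against 4466 UMIs) and the share with all UMIs 0.171%. In other conventional dendritic cells it was 0.493% thinned and 3.45% unthinned. Ccl17 was found in 76.6% of thinned members (81.2% unthinned), against 0.455% of T gate cells (0.741%). Il12b was found in 23.4% of thinned members (29.7% unthinned) and in 0 of 3297 T gate cells, which allows a share of up to 0.0910% (3 cells of the total). Ccl5, which T cells make, was found in 65.6% of thinned members (81.2% unthinned) and in 0 of 203 other conventional dendritic cells, which allows up to 1.48%.

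Cytokines and their receptors were called in both directions. Of 16 cytokine genes only 6 reached 50 CPM, with Il12b higher (log2 ratio 3.70) and Tgfb1 lower (88.9 against 208 CPM). Il1b was 1406 CPM against 1995. Il12a, the partner of Il12b in interleukin 12, and Il27, Il10 and Il1a had no UMI in the members, which at this depth allows up to 9.52 CPM. Among 18 receptor genes, Il7r (302 against 35.5 CPM), Il2ra (168 against 17.8 CPM) and Il21r were higher, and Ifngr1, Csf1r, Flt3 and Il1r2 lower. Flt3, the receptor that sustains dendritic cell precursors, was 41.2 against 113 CPM. Of 5 genes in the trafficking list 3 were lower and none higher, among them Ccr1 and Ccr2, which guide cells into inflamed tissue. Gpr183, the oxysterol receptor that positions dendritic cells, was 451 against 234 CPM, short of 2-fold on the called scale.

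Costimulatory and inhibitory molecules were both higher. Among 10 costimulation genes 7 were higher and 1 lower (median log2 ratio 1.09). Cd40, which receives help from T cells, was 254 against 23.1 CPM, a log2 ratio of 3.46 (2.81 to 4.16), and was found in 43 members. Cd86, a ligand of Cd28, was 394 against 190 CPM, and Cd83, a classical maturation marker, 816 against 397 CPM. Cd80, Icosl, Icam1 and Tnfrsf9 were the others, and Cd24a was lower. Among 13 inhibitory and regulatory genes 8 were higher and 3 lower (median 2.43). Cd274, which encodes PD-L1, was 235 CPM (184 to 295) against 35.5, a log2 ratio of 2.73 (2.15 to 3.32), and Pdcd1lg2, which encodes PD-L2, was 85.7 against 7.10 CPM. Cd274 was found in 57.8% of members, or 28.1% after thinning, against 4.84% and 2.21% of T gate cells. Cd200, Fas, Socs1, Socs2, Aldh1a2 and Il4i1 completed the higher genes, whereas Socs3, Havcr2 and Vsir were lower. Ido1 and Lag3 had no UMI. Of the members 29 held both Cd274 and Cd86, 8 Cd274 alone, 18 Cd86 alone and 9 neither.

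Genes for antigen handling were more often lower. Of 12 class II pathway genes outside the rule, 5 were lower and 1 higher (median -0.82). H2-DMa and H2-DMb1, which load peptide onto class II, were 235 against 984 CPM and 95.2 against 658 CPM. Ciita, the master activator of class II genes, was 50.8 against 224 CPM, a log2 ratio of -2.14 (-2.97 to -1.41), and March1, which removes class II from the surface, had no UMI against 62.1 CPM, at least 6.53-fold lower. Cd74, the invariant chain, was 13505 against 20249 CPM. Among 10 uptake receptors 7 were lower (median -1.71), including Mrc1, Fcgr2b, Fcgr3 and Mgl2 (124 against 725 CPM). Ly75, the endocytic receptor DEC-205, was the 1 higher gene, at 270 against 33.7 CPM. Over the 19 genes of the uptake list outside the gates, the members held 685 CPM, type 1-like cells 914 and type 2-like cells 2665. The list holds the type 2 markers Mgl2 and Clec10a, so part of its deficit can come from the gates. In the class I pathway 4 of 17 were higher (B2m, H2-K1, Tapbpl and Psme2) and 2 lower (Calr and Pdia3), with H2-K1 at 2018 against 829 CPM. Lysosomal genes were split, 3 of 17 higher (Ctsh, Lamp1 and Cd63) and 5 lower, among them Psap and Grn. Pattern recognition genes were 2 higher and 3 lower of 9.

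**Figure D3:**
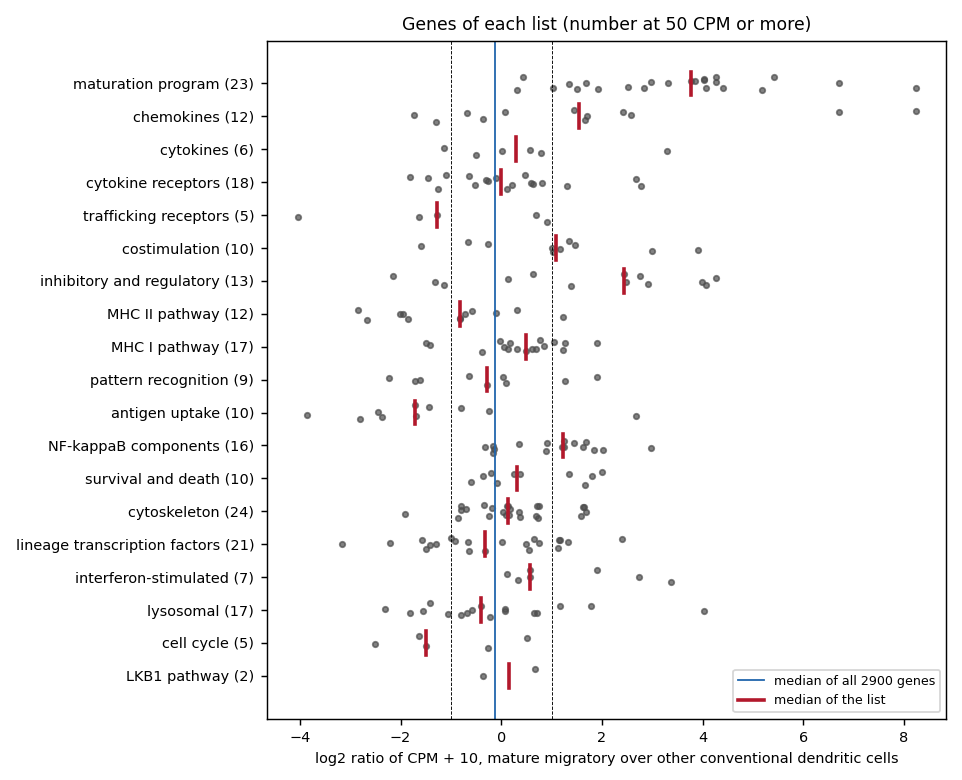
Log2 ratio of CPM + 10 in mature migratory over other conventional dendritic cells (x axis) for each gene of 19 lists at 50 CPM or more, with the number of genes in parentheses, red bars for list medians and a blue line for the median of all 2900 genes (-0.12). Dashed lines mark 2-fold, and the maturation program (3.76) and the inhibitory and regulatory list (2.43) have the highest medians.

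Signaling and lineage factors differed in both directions. Of 16 NF-kappaB components 9 were higher and none lower (median 1.23). Relb, the factor of the noncanonical arm, was 311 CPM (253 to 379) against 31.1, and its partner Nfkb2 105 against 22.2 CPM. Rel, Nfkb1, Nfkbib, Map3k14, Tnip1, Traf1 and Traf3 were the others. Irf8, which type 1 cells need, was 590 CPM in the members, 997 in type 1-like and 176 in type 2-like cells, while Irf4 was 60.3 CPM against 1.77 and 74.9. Batf3, another type 1 factor, was higher (184 against 78.1 CPM), as were Nr4a3, Etv3, Stat3 and Stat5a. Nr4a3, an orphan nuclear receptor, was 711 against 126 CPM and its relative Nr4a1 98.4 against 491 CPM. Klf4, Tcf4, Zeb2, Bcl11a, Cebpb and Egr1 were also lower. Of the 8 type 1 markers at 50 CPM or more outside the gates 6 were lower, and of the 9 type 2 markers 7 were. The comparison class was chosen on Xcr1 and Clec9a or on Cd209a, so a deficit in these markers can come from the gates.

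Other lists ranged from mostly higher to mostly lower. In the 25-gene maturation program, drawn up with earlier results of these data known, 21 of 23 genes at 50 CPM or more were higher and none lower (median 3.76). Samsn1 was found in all 64 members at 2082 against 201 CPM, while Cst3 at 20873 against 16882 CPM and Adam23 were the genes short of 2-fold. Of 10 survival and death genes 4 were higher and none lower, among them Birc2, Birc3 and Cflar, which restrain cell death. Among 24 cytoskeletal genes Marcks, Marcksl1, Myo1g and Swap70 were higher and Rac2 lower. Of 7 interferon-stimulated genes 3 were higher (Rsad2, Mx1 and Gbp5), but 98% of the Rsad2 UMIs lay in 3 cells. Top2a, Hmgb2 and Stmn1 were lower among 5 cell cycle genes. Stk11, which encodes LKB1, was found as 11 UMIs in 9 members, 34.9 CPM (17.4 to 62.5) against 17.7, under the 50 CPM limit, and neither LKB1 pathway gene that reached 50 CPM was called.

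The members were not uniform in class II. Divided at the median class II share, a division chosen after seeing the data, an upper group of 32 held class II at 20435 CPM and a lower group of 32 at 3074 CPM, with median depths of 4686 and 4306 UMIs. Only 4 cells lay within 20% of the median. Over 2927 genes, 254 (8.68%) were 2-fold higher and 297 (10.1%) 2-fold lower in the upper group. Genes that load and assemble class II were higher with the class II genes that set the division. Cd74 was 20225 against 6831 CPM, H2-DMa 401 against 69.6 CPM (log2 ratio 2.53, 1.59 to 3.60) and H2-DMb1 178 against 12.7 CPM (2 UMIs; log2 ratio 3.82, 1.83 to 6.93). All 16 Ciita UMIs of the members lay in the upper group, at least 5.37-fold higher.

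Chemokines divided along the same axis. Ccl17 was higher in the upper group, at 7170 against 2878 CPM (log2 ratio 1.32, 1.16 to 1.48), and its median per cell was 4829 against 1839 CPM. Ccl5 ran the other way, at 1930 against 5104 CPM (log2 ratio -1.40, -1.60 to -1.21), with medians per cell of 460 and 3068 CPM. The cells of both groups spanned wide and overlapping ranges, from 0 to 15996 CPM for Ccl5 in the upper group and from 0 to 22893 in the lower. Ccl22 differed less, at 3190 against 2233 CPM, and Ccr7 (2127 against 2271 CPM), Fscn1 (1356 against 1512 CPM) and Cd274 (236 against 234 CPM) were close. Ccl4 and Mgl2 were higher in the upper group (433 CPM against 3 UMIs, log2 ratio 4.51, 2.90 to 6.83, and 242 CPM against 1 UMI, log2 ratio 5.26, 2.69 to 10.60).

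The lower group was the one with more of several member genes. Aldh1a2 was 335 against 76.4 CPM, with 80.0% of its UMIs over all members in 6 cells. Serpinb6b, a protease inhibitor, was 582 against 210 CPM, Cd200, an inhibitory ligand, 379 against 140 CPM, and Pdcd1lg2 139 against 31.8 CPM. Fabp5 was 3687 against 2089 CPM and Apol7c 569 against 267 CPM. Of the 10 members with 2 or more C1q UMIs, 9 were in the upper group. With those 10 left out the median was set anew. The log2 ratio was then -1.77 for Ccl5, 1.04 for Ccl17, 1.48 for Cd74 and -2.90 for Aldh1a2. It was 3.82 for Mgl2 and 3.19 for Ccl4, against 5.26 and 4.51 with all members. All of these kept their sign. The log2 ratio of Ccl22 was 0.13.

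**Figure D4:**
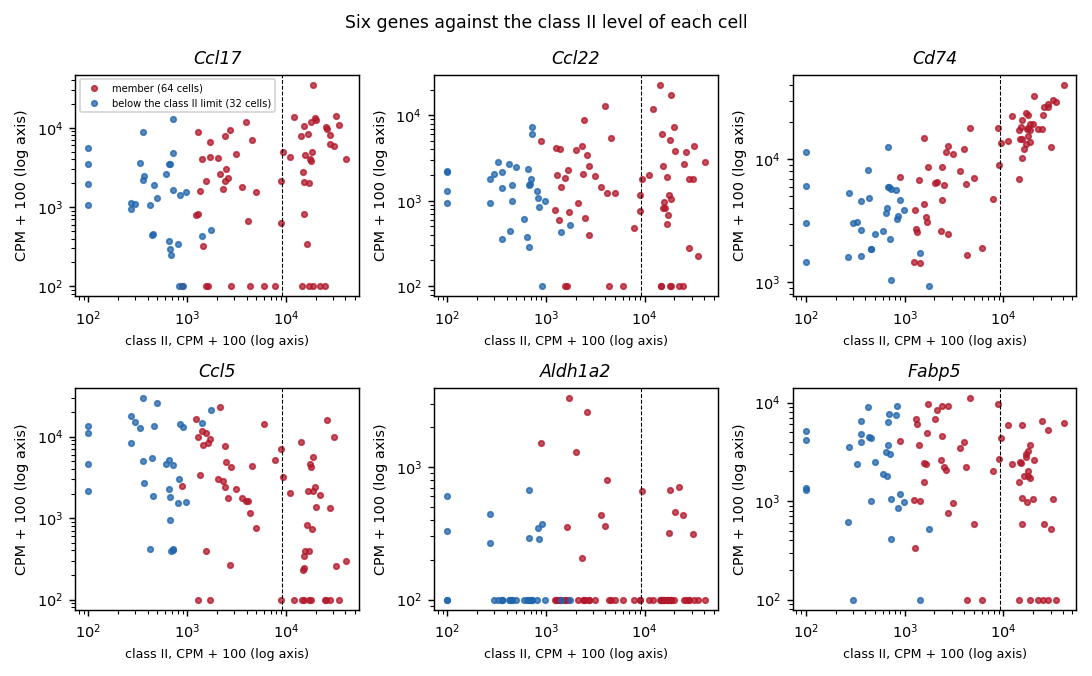
Level of 6 genes in each cell (y axis, CPM + 100) against its class II level (x axis, CPM + 100), both on log axes, for 64 members (red) and 32 cells that failed only the class II limit (blue), with a dashed line at the median of the members. Ccl17 and Cd74 are higher toward the right and Ccl5 toward the left, with wide scatter among cells.

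The 32 cells just outside the class II limit continued this axis for Ccl5, Ccl17 and the class II pathway, but not for all genes. They held Ccl5 in all 32 cells at 7774 CPM (7310 to 8260), a log2 ratio of 1.14 (1.02 to 1.27) over the members. Ccl17 was 2027 CPM (log2 ratio -1.31) and Ccl22 1500 CPM. The median of Ccl22 per cell differed little, at 1258 CPM against 1694 in the upper and 1340 in the lower group. Cacnb3 (505 CPM), Fabp5 (3163 CPM), Cst3 (20843 CPM) and Cd274 (208 CPM) stayed near their levels in the members. Ciita, H2-DMb2 and Mgl2 had no UMI, and Cxcl2 was 304 against 1469 CPM. Of the genes that were higher in the lower group of members, Apol7c (252 CPM) and Aldh1a2 (96.5 CPM) stood under their levels in that group, and Pdcd1lg2 was found as 1 UMI, a log2 ratio of -3.53 (-8.88 to -0.93) over the members. Over 2692 genes, 3.71% were 2-fold higher and 6.91% lower than in the members.

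**Figure D5:**
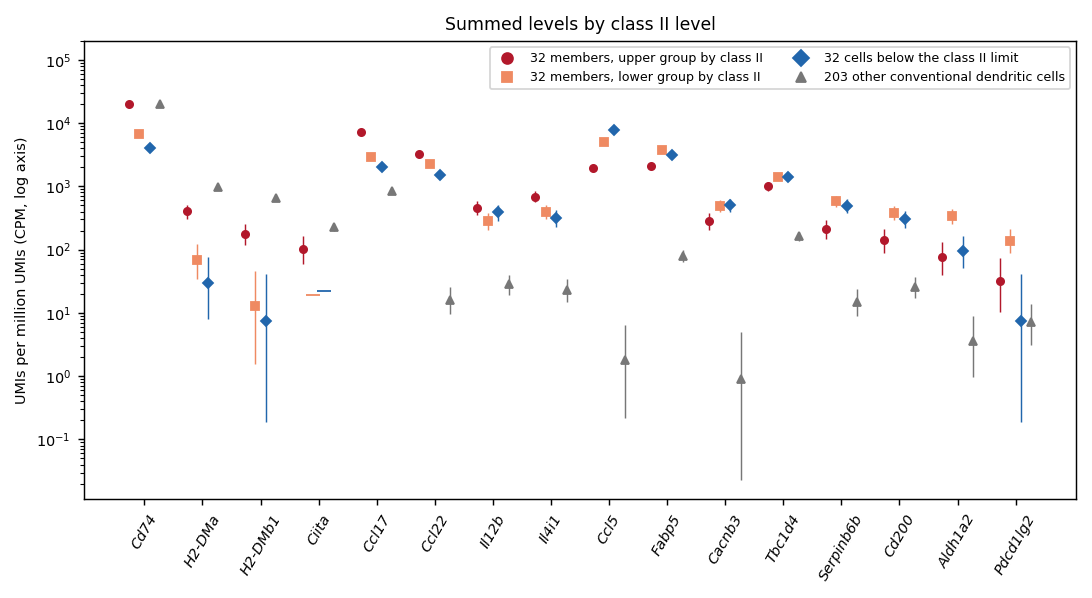
Summed level of 16 genes (x axis) as CPM on a log axis, with exact 95% Poisson intervals, in the upper and lower groups of members by class II, in the 32 cells below the class II limit and in 203 other conventional dendritic cells; a dash marks the level of 3 UMIs where none was found. From the upper group to the cells below the limit, Cd74 goes from 20225 to 3980 CPM and Ccl5 from 1930 to 7774 CPM.

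A second difference among members concerned Il12b. The 19 members with an Il12b UMI (median depth 5317 UMIs) were compared with the 45 without one (4138). Ccl22 and Ccl17 were higher in them, with log2 ratios of 0.84 (0.64 to 1.04) and 0.83 (0.68 to 0.97), and Irf8 as well at 0.70 (0.26 to 1.13). Other type 1 markers went both ways with intervals that span 0. Batf3 was at -0.19 (-1.10 to 0.65), Naaa at -0.92 (-4.20 to 1.40) and Wdfy4 at 0.66 (-2.11 to 3.22). Fabp5 was lower (-0.73) and Aldh1a2 lower still (-2.51, -4.18 to -1.21), while Ccl5 (0.09) and Ccr7 (-0.01) were close. The type 2 gene Mgl2 was found as 1 UMI in the 19 cells and 38 in the 45, a log2 ratio of -4.17 (-9.51 to -1.61). Members with 2 or more C1q UMIs were kept in this comparison. Leaving such members out lowered the log2 ratio of Mgl2 by class II, as given above. Il12b and Aldh1a2 were found together in 3 members, Il12b alone in 16, Aldh1a2 alone in 13 and neither in 32. Divided by Aldh1a2 instead, Il12b was 470 CPM in the 16 members with Aldh1a2 and 333 CPM in the 48 without. That log2 ratio of 0.50 (-0.10 to 1.07) has the opposite direction, with an interval that spans both signs. As given above, few cells held most Aldh1a2 UMIs. The 10 members without Ccl22 had a median depth of 4697 UMIs and held Ccl17 at 998 CPM and C1qa at 421 CPM, against 5017 and 121 CPM over all members. These sums rest on few cells: Ccl17 was found in 2 of the 10 and absent from 8, and 2 held 2 or more C1q UMIs.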

How the data were processed

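Cells of 4 mice were sorted for viability with DAPI and profiled in droplets with 3′ chemistry. Per the file headers and the study's methods, the authors made the deposited counts (whole UMI counts per gene and cell) with Cell Ranger 3.0.2 on mm10 with GFP and TdTomato added. The study's methods merge the matrices in R with Seurat; they do not say whether depth was evened between libraries. The matrix holds 31055 features and 58624795 UMIs. Kept cells had at least 200 genes and at most 13.4% mitochondrial UMIs, the 98th percentile over cells. UMIs were summed per gate, with exact Poisson intervals for CPM, exact conditional intervals for ratios and Clopper-Pearson intervals for shares. Genes at 50 CPM in either class were called at 2-fold on CPM + 10. Genes used by any gate were left out of calls. Named genes were the 15 with the largest ratio in each direction, the 10 highest against all other cells and the genes of the lists. The members, lists and tests were chosen with earlier results of these data known. The division by class II, the C1q and Ccl22 subsets and the alternatives on class II and C1q were chosen after seeing the data. Of the genes listed, 5 were not found by symbol in the table. Doublets were scored with Scrublet and clusters made with Leiden in scanpy 1.11.5; scored doublets stayed in. The scripts were tested on simulated data, with Python 3.11.15 and scipy 1.17.1. Promoters came from RefSeq, gene spans from GENCODE. With 1 pooled sample no p-value was computed. Some genes of the lists and 1 allele of the mice are not reported here.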

Additional observations from a re-analysis of the deposited data

How the results depend on the processing

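No paired analysis was possible because the cells of the 4 mice are pooled with no map to mice, and leaving out a mouse could not be done for the same reason. The share of members went to 0.0522% of cells with gates on cells thinned to 1000 UMIs (9 members), 0.231% without cells with UMIs of other lineages and 0.483% with the class II limit dropped. Genes 2-fold higher and lower than in other conventional dendritic cells numbered 618 and 733 with thinned gates, 189 and 193 with a pseudocount of 50 CPM, and 209 and 200 with a minimum of 100 CPM; a minimum of 20 CPM gave 722 lower. Against all other cells they numbered 559 and 905 with thinned gates and 203 and 308 with the larger pseudocount, and the minimums gave 1201 (20 CPM) and 269 (100 CPM) lower. The summed maturation program, 1.09 in log2 and mostly Cst3, was 1.05 with Fscn1 at 1 or more, 1.18 at 3 or more, 1.203 with thinned gates, 1.197 without other lineages, 1.30 with each cell weighted the same, 0.52 against type 1-like and 2.04 against type 2-like cells alone, and 1.13 without the class II limit. Ccl22 was found in 80.6% of members thinned to 2000 UMIs and 84.4% unthinned.

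Signs turned for trafficking receptors (0.12 with thinned gates, 0.22 against type 1-like cells alone), interferon-stimulated genes (-0.78 with thinned gates) and cytokines (0.15 against type 1-like cells alone). They also turned for cytokine receptors (-0.023 against type 2-like cells alone) and lineage transcription factors (-0.00530 in members with at most 1 C1q UMI). The cause of these turns was not tested. S100a8 turned as well (0.68 without other lineages), under a filter that counts S100a8 itself. Of 450 values for the 30 named genes, 423 were counted as staying, 26 moved and 1 turned. Staying meant a change within counting error. Genes with no UMI in a class have no such interval and were counted as staying unless they turned. Apol7c, 1 of these, ran from 3.23 to 8.71 in log2 over all settings. Of 150 values for the 10 genes against all other cells, 134 stayed, 16 moved and 0 turned, where staying meant a change of less than 2-fold. The depth of 315143 UMIs in all members limits statements on any gene at a few UMIs.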
